A study of Mus musculus with 72 samples.

Results

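SmcHD1 knockout clone A3 and its WT parental line iXist-ChrX-Dom were compared on days 5 and 7 of Xist induction under neural precursor cell (NPC) differentiation, in 4 A3 and 4 WT libraries of the 72 in the series. Every library carried 1 label for line, genotype and day, and the 8 were chosen from those labels alone, with 2 libraries per genotype on each day. Both lines are female mouse embryonic stem cells (mESCs) that carry 1 X chromosome from Mus musculus domesticus (strain 129S, called Dom) and 1 from Mus musculus castaneus (Cast). In both, a TetOn promoter stands in place of the Xist promoter on the Dom chromosome, so that doxycycline, given to both genotypes at 1 µg/mL throughout, makes the Dom chromosome the inactive X (Xi) and leaves the Cast chromosome active (Xa). A3 additionally lacks SmcHD1 after CRISPR-Cas9 cutting of the gene. A3 is 1 clone, so an effect of the knockout and a property of that clone cannot be told apart within this line. The study's text describes days up to 7 as 2 replicate time courses, so the day 5 and day 7 libraries of a replicate number belong to the same time course, and the 4 libraries of a genotype stand for 2 time courses. The tests on 4 against 4 libraries treat them as independent.

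X chromosome inactivation equalises X-linked gene dosage between XX and XY mammals. Xist, a long non-coding RNA, coats the chromosome that makes it and brings in repressors, of which SPEN and the Polycomb complexes act early. SmcHD1 is a chromosomal protein of the SMC family that joins Xi later and is known for keeping Xi genes and some imprinted and clustered autosomal genes silent. Promoter CpG islands on Xi become methylated, a late step for which SmcHD1 is needed at many genes. RNA bound to chromatin (ChrRNA) is mostly nascent transcript, and fragments that cover a base differing between the parental strains can be given to 1 of the alleles. The measure used here is the allelic ratio, the Xi fragments of a gene over its Xi plus Xa fragments, which is near 0.5 for an X-linked gene with both alleles equally active and 0 for complete silencing. The question is which of the 246 X-linked genes in the deposited Dom ratio table kept more Xi transcript in A3 at this stage, and whether autosomal RNA differed. Those genes lie between positions 6047506 and 103396118 of the X chromosome. The paper names a recombination event in this line as a reason why some genes could not be evaluated by allele. Genes past that stretch are not in the table.

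Promoters of 4 genes with a higher Xi share in A3 are shown with their CpG dinucleotides marked, since CpGs are the bases that the methylation step acts on. Each sequence is the RefSeq reference of GRCm38.p6, 5′ to 3′ on the gene's strand, running from 250 bases before to 50 bases after the annotated start, with every CG in capitals. It is the reference strain's sequence, not that of either allele. The 4 lie at chrX:100494041-100494340 (Igbp1), chrX:98937531-98937830 (Yipf6), chrX:74393041-74393340 (Ikbkg) and chrX:7883994-7884293 (Slc35a2), all on the plus strand.
Igbp1: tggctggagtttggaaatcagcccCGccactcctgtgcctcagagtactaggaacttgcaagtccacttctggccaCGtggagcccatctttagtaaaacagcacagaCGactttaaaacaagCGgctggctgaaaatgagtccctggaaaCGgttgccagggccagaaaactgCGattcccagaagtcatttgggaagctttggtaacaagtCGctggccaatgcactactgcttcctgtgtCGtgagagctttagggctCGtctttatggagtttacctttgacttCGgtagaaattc
Yipf6: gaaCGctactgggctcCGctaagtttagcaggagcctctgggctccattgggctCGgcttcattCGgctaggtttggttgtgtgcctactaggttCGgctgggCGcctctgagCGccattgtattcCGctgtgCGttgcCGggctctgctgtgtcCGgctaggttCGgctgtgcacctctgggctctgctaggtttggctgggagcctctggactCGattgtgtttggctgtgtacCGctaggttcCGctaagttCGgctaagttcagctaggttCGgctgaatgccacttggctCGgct
Ikbkg: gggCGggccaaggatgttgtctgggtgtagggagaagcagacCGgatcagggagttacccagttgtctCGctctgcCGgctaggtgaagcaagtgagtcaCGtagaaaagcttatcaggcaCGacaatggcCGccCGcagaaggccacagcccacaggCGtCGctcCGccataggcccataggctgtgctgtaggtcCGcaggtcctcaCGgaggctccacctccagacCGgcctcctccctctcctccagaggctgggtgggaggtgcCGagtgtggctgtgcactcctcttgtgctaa
Slc35a2: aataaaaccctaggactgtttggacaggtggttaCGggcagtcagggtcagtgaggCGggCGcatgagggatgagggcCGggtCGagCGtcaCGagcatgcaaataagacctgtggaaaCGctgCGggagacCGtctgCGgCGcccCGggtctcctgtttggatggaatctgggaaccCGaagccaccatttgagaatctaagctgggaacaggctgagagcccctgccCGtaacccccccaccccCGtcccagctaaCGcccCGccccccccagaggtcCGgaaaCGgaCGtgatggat
They hold 10, 18, 15 and 21 CpGs. All 18 genes with a higher ratio in A3, given in the next paragraphs, had an entry in the RefSeq promoter table, and in 17 of them the promoter lay within 300 bases of the start used in the count files. In those 17 promoters the CpG number ran from 5 to 29 with a median of 18, and 94.1% held 10 or more. In the 188 promoters of the 246 genes that met the same condition the median was also 18 and 79.3% held 10 or more, against 43.5% of all 32851 mouse promoters in the table. The motif CG reads the same on both strands. CpG content is a description of these sequences; methylation was not measured in these libraries.

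Depth ran from 24234960 to 31152645 fragments per library, of which 46.5 to 48.6% could be given to an allele, and the median table gene had 200 to 265 allelic fragments. At that median a count of 0 allows an allelic ratio of up to 0.0113 to 0.015, which covers counting error only. Xist itself gave 113031 to 203439 Dom fragments and 69 to 178 Cast fragments in the 8 libraries, so Xi is the labelled chromosome in each. Smchd1 RNA was at 628, 560, 572 and 574 RPM (fragments of the gene per 1000000 fragments counted in the library) in WT and 548, 594, 524 and 576 in A3. The transcript remains in A3 and its amount does not check the deletion. Some libraries stood apart. Replicate 2 of WT on both days had a Cast share of 0.352 and 0.371 at the distal end of chromosome 5. The other 6 libraries were at 0.463 to 0.479 there. On distal chromosome 6 WT replicate 2 departed in both directions. Its Cast share was 0.603 and 0.615 in the part from position 120000001, where the others were at 0.467 to 0.486. In the part from position 140000001 it was 0.378 and 0.362, where the others were at 0.475 to 0.492. On distal chromosome 11 WT replicate 1 was close to an even share, at 0.511 and 0.514. WT replicate 2 was at 0.615 and 0.614 in that part, and the A3 libraries ran from 0.621 to 0.638. A3 thus shared this skew with WT replicate 2 and not with WT replicate 1. The day 7 replicate 2 library of A3 stood apart in differentiation genes, described with the autosomal RNA. The 8 libraries expressed the neural precursor genes Nes and Vim, while Pax6 was at 0.387 to 2.46 RPM. Sox1, a defining marker of that state, had a count of 0 in all 8. An exact 0 in every library cannot tell absent RNA from fragments that were not assigned to the gene. How far the neural label was met at these days was not tested.

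At days 5 and 7, 18 of the 246 X-linked genes had a higher allelic ratio in A3 than in WT, which is 7.32%, and 0 had a lower one (0%) (limma with day as a factor, Benjamini-Hochberg adjusted p under 0.05). Before adjustment 50 genes passed p under 0.05 (20.3%), 46 of them higher in A3. The median gene among the 18 had an allelic ratio of 0.0444 in WT and 0.134 in A3, while the median over the other 228 genes was 0.0324 in WT and 0.0364 in A3. Over all 246 genes the difference was above 0 in 156. By day it was above 0 in 117 genes on day 5 and in 182 on day 7. The median difference over the 246 was -0.000275 on day 5 and 0.0109 on day 7. The median over the 246 genes per library was 0.0503 and 0.0423 on day 5 and 0.0164 and 0.0178 on day 7 in WT, and 0.0571 and 0.0375 on day 5 and 0.0335 and 0.0302 on day 7 in A3. The groups overlapped on day 5 and did not on day 7. The difference of these medians was 0.00789 (exact two-sided permutation test within days, p = 0.222, where 36 arrangements allow no p below 0.0556). A shift of the median over the 246 genes was not detectable with these 8 libraries.

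The count of 18 rests on the spread among few libraries. With the ratios of days 5 and 7 averaged per time course, which leaves 2 values per genotype, 0 of the 246 genes passed limma (40 at an unadjusted p under 0.05) and the adjusted p of the 18 ran from 0.105 to 0.198, an alternative added after the data were seen. The count was 0 without WT day 5 replicate 2, 0 without WT day 7 replicate 1 and 6 without WT day 7 replicate 2. Leaving out WT day 5 replicate 1 gave 11 genes, A3 day 5 replicate 1 or replicate 2 gave 10 each, A3 day 7 replicate 1 gave 9 and A3 day 7 replicate 2 gave 14. With WT replicate 1 alone as the control, 1 gene passed, Cetn2, which was lower in A3 by 0.0532 (adjusted p = 0.0264) and is named after its value was seen. A test of the allelic fragment counts (edgeR) instead of the ratio gave 25 genes, 24 higher and 1 lower in A3, among them 16 of the 18. It was 23 on the log2 scale (21 higher and 2 lower), 20 without a variance trend and 27 (26 higher and 1 lower) among the 204 genes with at least 30 allelic fragments in every library. Both A3 libraries lay above both WT libraries on each day for 43 of 246 genes (17.5%) and below for 3 (1.22%).

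The 12 genes with the largest differences are given by library, WT day 5 first, then WT day 7, A3 day 5 and A3 day 7, with SDs over 4 libraries that include the step between days and, as above, stand for 2 time courses. Igbp1 encodes a regulatory subunit of the PP2A phosphatase family. Its allelic ratio was 0.12 and 0.0966, then 0.0373 and 0.036 in WT, and 0.219 and 0.22, then 0.17 and 0.236 in A3. In WT the Xi share of Igbp1 was lower on day 7 than on day 5, and every A3 library lay above every WT library on both days. The means were 0.0724 ± 0.0424 (SD, n = 4) in WT and 0.211 ± 0.0285 (SD, n = 4) in A3, a difference of 0.139 (SE 0.0195, adjusted p = 0.0102), the largest of the 18. It rested on 555 to 996 allelic fragments per library, and the 95% Wilson intervals of WT day 7 replicate 2 (0.0234 to 0.055) and A3 day 7 replicate 2 (0.211 to 0.264) stood well apart. Yipf6, a membrane protein of the Golgi, lies in the same stretch of the chromosome. Its allelic ratio was 0.0627, 0.0583, 0.0322 and 0.03 in WT and 0.168, 0.153, 0.129 and 0.189 in A3. All 4 A3 libraries of Yipf6 lay above all 4 WT libraries, and the difference of 0.114 (SE 0.0158) had an adjusted p of 0.0102.

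**Figure D1:**
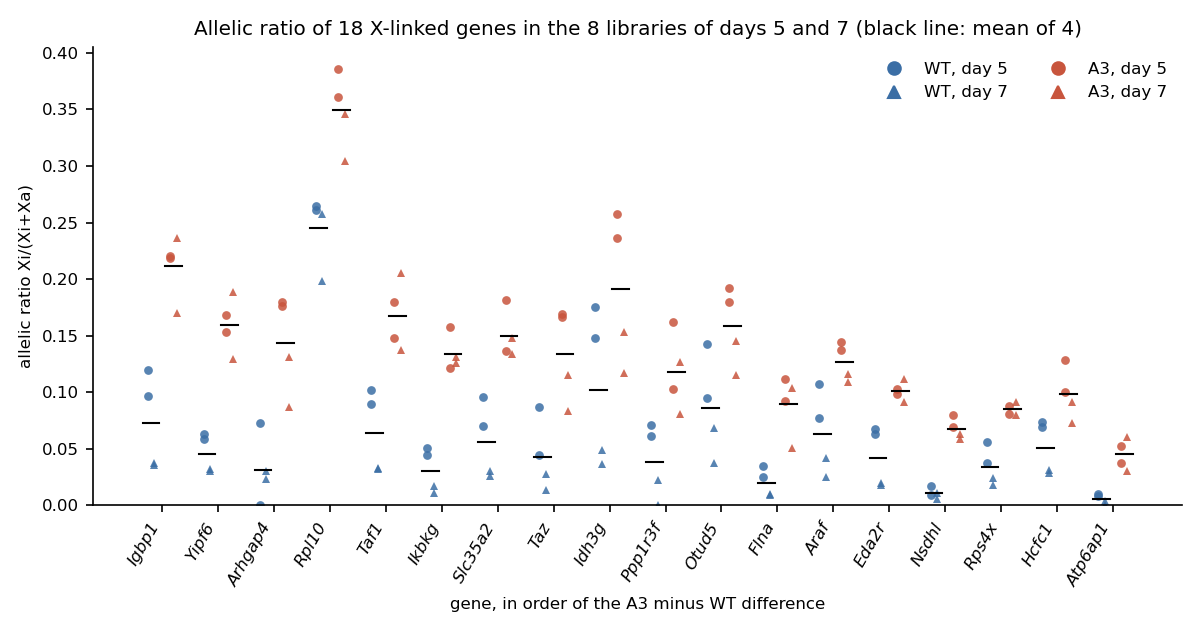
Allelic ratio Xi/(Xi+Xa) on the y axis for the 18 X-linked genes with a higher ratio in A3, ordered by the difference, in each of the 8 libraries (blue, WT; red, A3; circles, day 5; triangles, day 7; black lines, means of 4 libraries). Igbp1 has the largest separation, from 0.036 to 0.12 in WT to 0.17 to 0.236 in A3, and Rpl10 is the highest of the 18 in both genotypes.

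Several of the 12 encode parts of transcription and signalling machinery. Taf1, the largest subunit of the general transcription factor TFIID, was at 0.102, 0.0893, 0.0321 and 0.0326 in WT and 0.148, 0.18, 0.138 and 0.205 in A3. The A3 minus WT difference of Taf1 was 0.104 (SE 0.0216, adjusted p = 0.0336), on 903 to 1381 allelic fragments per library. Ikbkg (NEMO), the regulatory subunit of the IKK kinase that activates NF-κB, was nearly silent on the WT Xi by day 7. Its 4 WT values were 0.0506, 0.0447, 0.0108 and 0.0169 and its 4 A3 values 0.158, 0.122, 0.131 and 0.125. The A3 values of Ikbkg were thus close together on both days and all above WT, with a difference of 0.103 (SE 0.0122, adjusted p = 0.0102). Otud5, a deubiquitinase, was at 0.142, 0.0949, 0.0373 and 0.068 in WT and 0.18, 0.192, 0.115 and 0.145 in A3. For Otud5 1 WT day 5 library reached into the A3 day 7 range, while within each day both A3 libraries were higher (difference 0.0726, SE 0.0158, adjusted p = 0.0359). Arhgap4, a GTPase-activating protein, had only 33 to 46 allelic fragments per library. It had 0 of 40, 3 of 41, 1 of 33 and 1 of 43 Xi fragments in WT and 7 of 39, 6 of 34, 5 of 38 and 4 of 46 in A3. All 4 A3 ratios of Arhgap4 (0.087 to 0.179) exceeded all 4 WT ratios (0 to 0.0732), but the 0 of 40 still allows a ratio of up to 0.075 and the single-library Wilson intervals overlap. The fitted difference was 0.112 (SE 0.0214, adjusted p = 0.0302).

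Metabolic genes form another part of the 12. Slc35a2 carries UDP-galactose into the Golgi. It was at 0.0962, 0.0698, 0.0263 and 0.0306 in WT and 0.137, 0.181, 0.134 and 0.148 in A3, on 82 to 156 allelic fragments. No WT library of Slc35a2 reached the lowest A3 library, and the difference was 0.0942 (SE 0.0154, adjusted p = 0.0143). Taz here is tafazzin, which remodels the mitochondrial lipid cardiolipin. It was at 0.0441, 0.087, 0.0135 and 0.0278 in WT and 0.169, 0.167, 0.115 and 0.0833 in A3. One WT day 5 library of Taz slightly exceeded 1 A3 day 7 library, and within each day the genotypes did not overlap (difference 0.0905, SE 0.0145, adjusted p = 0.0143). Idh3g, a subunit of the mitochondrial NAD-dependent isocitrate dehydrogenase, was lower on day 7 than on day 5 in both genotypes. Its values were 0.176, 0.148, 0.0491 and 0.0366 in WT and 0.236, 0.258, 0.117 and 0.154 in A3, a difference of 0.0888 (SE 0.0145, adjusted p = 0.0143). Ppp1r3f, which targets the phosphatase PP1 to glycogen, had 39 to 89 allelic fragments and was at 0.061, 0.0714, 0.0225 and 0 in WT and 0.103, 0.162, 0.127 and 0.0806 in A3. The 0 of 75 fragments in WT allows up to 0.04. All A3 libraries were above all WT libraries for Ppp1r3f, with a difference of 0.0794 (SE 0.0179, adjusted p = 0.0401).

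The remaining 2 of the 12 are highly transcribed. Flna encodes filamin A, an actin cross-linking protein, and with 6970 to 13514 allelic fragments per library had the most precise ratios. It was at 0.0345, 0.0248, 0.00913 and 0.00961 in WT and 0.0924, 0.111, 0.0506 and 0.103 in A3. On day 7 the 95% Wilson intervals ended at 0.0122 in WT and began at 0.0461 in A3, so counting error is small beside the difference of 0.0699 (SE 0.0135, adjusted p = 0.0302). Rpl10, a ribosomal protein gene, had a higher mean ratio in WT than the other 17, at 0.264, 0.261, 0.198 and 0.258, and was at 0.361, 0.386, 0.304 and 0.346 in A3 (difference 0.104, SE 0.0204, adjusted p = 0.0302). Rpl10 and Rps4x, another ribosomal protein gene called here, have near-identical processed copies elsewhere in the genome, so their values are uncertain to the extent that reads were shared.

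The other 6 had smaller differences, from 0.0641 for Araf to 0.0398 for Atp6ap1. Araf, a kinase of the RAF family, was at 0.0252 to 0.107 in WT and 0.109 to 0.145 in A3 (adjusted p = 0.0302). Eda2r, a receptor of the TNF receptor family, was at 0.0178 to 0.0673 in WT and 0.0909 to 0.112 in A3 (difference 0.0592, adjusted p = 0.0359). Nsdhl, an enzyme of cholesterol synthesis, was nearly silent in WT at 0.00542 to 0.0175 and at 0.0586 to 0.0795 in A3 (difference 0.0569, adjusted p = 0.0102). All A3 libraries lay above all WT libraries for these 3 genes. Rps4x differed by 0.051 (adjusted p = 0.034) and Hcfc1, a transcriptional coregulator, by 0.0474 (adjusted p = 0.0442). Atp6ap1, an accessory subunit of the vacuolar ATPase, was at 0.00813, 0.0101, 0.0035 and 0 in WT, where 0 of 293 fragments allows up to 0.0102, and at 0.0526, 0.0377, 0.0301 and 0.0605 in A3. It is the smallest difference of the 18 (SE 0.00816, adjusted p = 0.0329), and its share without induction was only 0.243, so its full range is narrower than that of the other genes. Over all 246 genes, all 4 A3 libraries exceeded all 4 WT libraries in 24 (9.76%), 14 of which are among the 18. Taz, Idh3g, Otud5 and Hcfc1 are the 4 that did not separate completely, and each of them separated within each day.

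Levels of the Xi and the Xa transcript can be given apart. Xi fragments averaged 2.05 RPM in WT and 6.6 RPM in A3 for Igbp1, 1.07 and 3.71 for Yipf6, 0.634 and 3.13 for Ikbkg and 6.61 and 32.3 for Flna. The Xa fragments of those genes were at 24.1 and 24.4 RPM for Igbp1, 20.8 and 19.3 for Yipf6, 19.6 and 20.1 for Ikbkg and 328 and 324 for Flna. In other genes Xa was lower in A3 as well, from 54.5 to 42.6 RPM in Rps4x, 4.16 to 3.35 in Slc35a2, 2.69 to 1.81 in Ppp1r3f and 1.49 to 1.16 in Arhgap4, and a lower Xa level raises the ratio too. The log2 ratio of the Xa levels, A3 over WT, ran from -0.55 to 0.15 over the 18 with a median of -0.06, 11 of them below 0, against a median of -0.04 over the 246. Xa levels were not tested. Total RNA of the 18, both alleles together, had log2 fold changes from -0.33 for Arhgap4 to 0.32 for Igbp1, none of which passed the edgeR test.

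Some genes that did not pass the threshold, named after their values were seen, had differences as large. Ogt, the O-GlcNAc transferase, was at 0.109, 0.0925, 0.0488 and 0.0497 in WT and 0.147, 0.196, 0.141 and 0.243 in A3, a difference of 0.107 with an adjusted p of 0.0566. It passed in the edgeR test of allelic counts (adjusted p = 0.000515), on the log2 scale (0.0168), with at least 30 allelic fragments (0.0172), in the fit of all 26 libraries (0.0214) and without A3 day 7 replicate 2 (0.046). Pin4, a peptidyl-prolyl isomerase, differed by 0.133, but its WT day 5 libraries at 0.31 and 0.3 exceeded 1 A3 library at 0.25 (adjusted p = 0.228). In the other direction Pgrmc1, a haem-binding membrane protein, had no Xi fragment in any of the 4 A3 libraries and 0.02 to 0.104 in WT (adjusted p = 0.05 after rounding, just above the threshold), and it was called lower in A3 by edgeR (adjusted p = 0.0389), on the log2 scale (0.0196) and over all X-linked genes (0.0477). Efhc2 was also lower in A3 within both days and was called lower on the log2 scale (adjusted p = 0.0147) and with at least 30 allelic fragments (0.0172).

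Position along the part of the chromosome that the table genes cover was uneven. Joining called genes within 5 Mb of each other gave 3 stretches and 1 gene alone. At chrX:7558561-7894492 (mm10), 3 of 14 table genes were called (Ppp1r3f, Otud5 and Slc35a2, 21.4%) and 13 were higher in A3, with a median difference of 0.0219. The stretch chrX:72918520-74453778, from Nsdhl to Ikbkg, held 9 called genes of 32 (28.1%), with 28 higher and a median difference of 0.0377. At chrX:97333840-102188371, from Eda2r to Rps4x, 5 of 27 were called (18.5%) and 24 were higher, with a median of 0.0293. Araf lies alone at chrX:20848542-20860521. Among the 172 table genes outside these stretches 90 were higher and the median difference was 0.000431. Since the called genes set the borders, their count within them is a description. The numbers higher and the median differences within the stretches include the called genes, while the 172 genes outside hold none of them by construction. The uncalled neighbours are the part that the calls did not fix, and they were not counted apart.

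**Figure D2:**
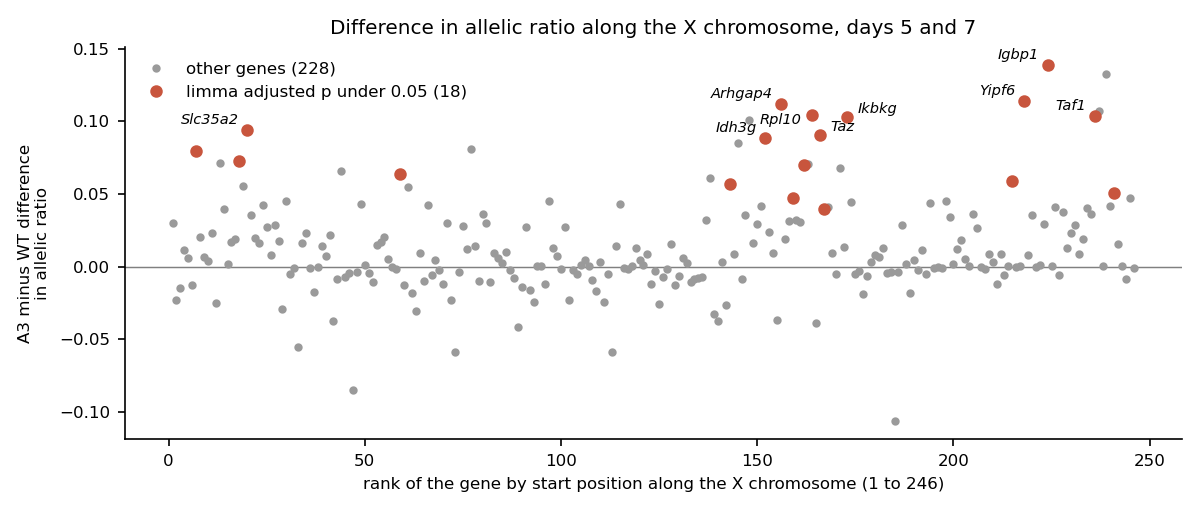
A3 minus WT difference in allelic ratio on the y axis for the 246 table genes in order of their start along the X chromosome on the x axis, as rank from 1 to 246, with the 18 called genes marked. The called genes sit in 3 groups plus Araf, and the 172 genes outside those stretches scatter around a median of 0.000431.

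Genes can also be grouped by how they depend on SmcHD1 in mouse embryonic fibroblasts (MEFs), from a classification that the study made on separate MEF data. Among all genes tested, 18 of 246 were called (7.32%) and 156 were higher in A3. Of 36 table genes classed as SmcHD1 dependent in MEFs, 7 were called (19.4%), 35 were higher and the median ratio was 0.0417 in WT and 0.0832 in A3. Those 7 were Arhgap4, Taf1, Ikbkg, Slc35a2, Idh3g, Ppp1r3f and Atp6ap1. Of 83 partially dependent genes 9 were called (10.8%) and 59 were higher, with medians of 0.0458 and 0.0654. Of 67 genes that were not dependent in MEFs 0 were called and 23 were higher, with medians of 0.0193 and 0.0162; 3 of the 67 were higher at an unadjusted p under 0.05. Of 9 MEF escapees Otud5 and Flna were called and 8 were higher. Of 51 genes without a class 0 were called, with 6 higher at an unadjusted p under 0.05, and 31 were higher. By library, the median of the dependent class was 0.0597, 0.0702, 0.0178 and 0.0256 in WT and 0.0979, 0.0965, 0.0743 and 0.0647 in A3. The dependent class thus lay higher in both A3 libraries on each day. The partially dependent class overlapped on day 5, at 0.0733 and 0.0513 in WT and 0.0682 and 0.0598 in A3. On day 7 it was at 0.0224 and 0.0248 in WT and 0.0559 and 0.0441 in A3. The class that was not dependent also overlapped on day 5, at 0.0357 and 0.0217 in WT and 0.0226 and 0.0173 in A3. On day 7 that class was at 0.00884 and 0.00889 in WT and 0.0124 and 0.0108 in A3. No test of the difference between classes was made.

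The time at which the genotypes separated was compared through libraries of days 2 and 3, 4 of each genotype. The A3 minus WT difference was larger on days 5 and 7 than on days 2 and 3 for 2 of 246 genes (0.813%), Taz and Taf1. Before adjustment 31 passed (12.6%), among them 12 of the 18. Since the 18 were chosen by their difference in the same libraries of days 5 and 7, that choice in part set this overlap. Taf1 was at 0.294, 0.302, 0.253 and 0.224 in WT on days 2 and 3 and at 0.276, 0.283, 0.213 and 0.208 in A3. On each of those days both A3 libraries of Taf1 lay below both WT libraries, and the difference afterwards was larger by 0.127 (SE 0.0267, adjusted p = 0.043), a value that includes this early difference in the other direction. Taz was at 0.333, 0.311, 0.213 and 0.215 in WT and 0.302, 0.267, 0.138 and 0.207 in A3 on those days, and its difference grew by 0.13 (SE 0.0252, adjusted p = 0.0418). For Igbp1 the means on days 2 and 3 were 0.272 in WT and 0.299 in A3, and for Ikbkg 0.176 and 0.199. Ppp1r3f was the exception among the 12, with 0.206 in WT and 0.284 in A3 already on days 2 and 3. Between day 5 and day 7 the A3 minus WT difference changed for 0 of 246 genes (0%, limma), with 24 at an unadjusted p under 0.05 (9.76%) and 0 on the log2 scale. Igbp1 differed by 0.111 on day 5 and 0.166 on day 7, Taf1 by 0.0683 and 0.139, and Arhgap4 by 0.141 and 0.0825.

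**Figure D3:**
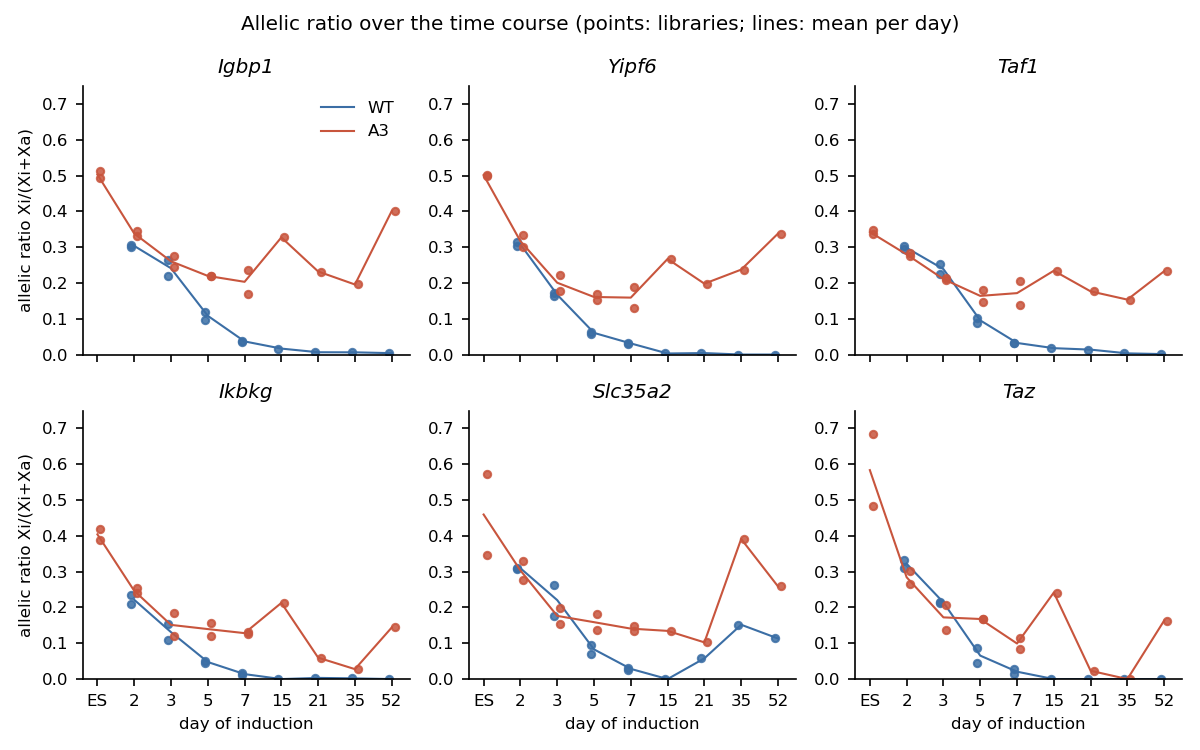
Allelic ratio on the y axis over the days of Xist induction on the x axis (ES, uninduced stem cells, then days 2 to 52) for selected genes, with points for single libraries and lines for the mean per day (blue, WT; red, A3). For Igbp1 the means on days 2 and 3 are 0.272 in WT and 0.299 in A3, and on days 15 to 52 WT is at 0.00386 to 0.0166 and A3 at 0.196 to 0.401.

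At days 15 to 52, with 1 library per genotype and day, the distance between A3 and WT varied by gene, and 4 of the 18 passed the test. Igbp1 was at 0.0166, 0.00641, 0.00615 and 0.00386 in WT on days 15, 21, 35 and 52 and at 0.327, 0.232, 0.196 and 0.401 in A3. The A3 values of Igbp1 were thus within or above their range on days 5 and 7, while WT was below its day 7 level. Yipf6, Taf1 and Idh3g passed the same test (adjusted p = 0.0342, 0.0342 and 0.0408), with WT means of 0.00176, 0.00899 and 0.00371 and A3 means of 0.26, 0.199 and 0.15. All 18 were higher in A3 and 15 were so at an unadjusted p under 0.05, where 8 of the 238 genes tested passed the adjusted threshold (3.36%), 64 the unadjusted one (26.9%) and 191 were higher (80.3%). The median difference of the 18 was 0.108 and that of all 238 was 0.0137. The 8 were Igbp1, Yipf6, Taf1 and Idh3g with Nkap, Zfx, Ogt and Pin4, the last 4 named after their values were seen. Taz was at 0 in all 4 WT libraries and ranged from 0 to 0.242 in A3, so its late values varied more than those of Igbp1. Arhgap4 was also at 0 in both genotypes on day 35, and Ppp1r3f was at 0 in A3 on days 21 and 52 against 0.125 and 0.0968 in WT. In WT on day 35 Otud5 was at 0.173, Ppp1r3f at 0.174 and Slc35a2 at 0.152, above their day 7 levels.

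The reciprocal line, iXist-ChrX-Cast, inactivates the Cast chromosome, and its SmcHD1 knockout clones D5 and G6 were set against their own WT on days 5 and 7, with 4, 4 and 6 values after averaging repeat libraries. Of 399 genes 2 passed (0.501%), Vma21 and Prkx, neither of them among the 18, with 66 at an unadjusted p under 0.05 (16.5%) and 296 higher in the knockouts (74.2%). Of the 18 genes 17 were higher in D5 and G6, all but Arhgap4, 9 of them at an unadjusted p under 0.05 and 0 after adjustment. Their median difference was 0.0264, against 0.0059 over the 399. Araf came closest, with a mean of 0.0581 in WT and 0.119 in the knockouts (difference 0.0605, adjusted p = 0.0572). The means were 0.0761 and 0.122 for Igbp1, 0.0729 and 0.119 for Yipf6 and 0.071 and 0.131 for Ikbkg. WT replicate 3 reached into the knockout range in each of them. On days 5 and 7 it was at 0.119 and 0.094 for Igbp1, 0.112 and 0.0898 for Yipf6 and 0.152 and 0.101 for Ikbkg. The lowest knockout values, all in D5, were 0.0903, 0.0847 and 0.0755. The clones differed in their counts: D5 alone gave 28 called genes with 15 of the 18 higher, and G6 alone gave 0 with 17 of the 18 higher. Atp6ap1, counted among the 17, was at 0.701 in WT and 0.707 in the knockouts of that line, so its ratio was not low in either genotype. Its share without induction was already skewed in A3, and whether its ratio reports silencing in this line was not tested.

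Of 12 genes known to escape inactivation in mouse, 5 were in the table and none was called. Kdm6a, a histone demethylase, was at 0.213 ± 0.0787 in WT and 0.256 ± 0.0324 in A3 (SD, n = 4, adjusted p = 0.418). Ddx3x, an RNA helicase, was at 0.119 ± 0.0347 and 0.184 ± 0.0464 (SD, n = 4, limma adjusted p = 0.228). Eif2s3x was at 0.165 and 0.199, Utp14a at 0.183 and 0.21, and Shroom4 at 0.0433 and 0.029, each with an adjusted p of 0.541. On day 5 alone the mean of neither Kdm6a nor Utp14a was higher in A3. On that day Kdm6a was at 0.293 and 0.267 in WT and 0.252 and 0.302 in A3. Utp14a was at 0.228 and 0.225 in WT and 0.202 and 0.224 in A3. On day 7 both A3 libraries lay above both WT libraries for Kdm6a (0.134 and 0.158 in WT, 0.225 and 0.247 in A3). The same held on day 7 for Utp14a (0.147 and 0.133, then 0.211 and 0.205), Ddx3x (0.0931 and 0.0911, then 0.138 and 0.226) and Eif2s3x (0.158 and 0.146, then 0.172 and 0.25). Shroom4 overlapped between genotypes on day 7. Kdm6a, Ddx3x, Eif2s3x and Utp14a had higher ratios in WT than the median gene of the 18, and Shroom4 did not.

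Xist RNA was at 10985, 13910, 16636 and 15161 RPM in WT and 16247, 12292, 18322 and 16194 RPM in A3. The genotypes overlapped on both days, and the log2 fold change was 0.23 (SE 0.16, edgeR adjusted p = 0.66, exact permutation p = 0.333). Of 561 X-linked genes 0 differed in total RNA (0%) by edgeR, with 64 at an unadjusted p under 0.05 (11.4%) and a median log2 fold change of 0.06. DESeq2, which fitted 773 X-linked genes and did not give each an adjusted p, called 6. Mamld1, one of those 6, is described with the autosomal genes.

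Autosomal total RNA gave no gene past the threshold. Of 14767 autosomal genes 0 were called by edgeR's quasi-likelihood test (0%), while 1345 had an unadjusted p under 0.05 (9.11%). DESeq2's Wald test called 112 of the 20104 genes it fitted on all chromosomes (0.557%), of which 14645 received an adjusted p. Of the 112, 106 were autosomal, with 71 higher and 35 lower in A3. Both directions were equally frequent, 7413 of the 14767 being lower in A3 (50.2%), and the median log2 fold change was -0.001. All 4 A3 libraries lay above all 4 WT libraries in 147 genes (0.995%) and below them in 320 (2.17%). A fit of all 26 libraries of the line called 15 genes. A fit that paired WT replicate 1 with A3 replicate 2 called 14. These and DESeq2 had 3 genes in common, named after their values were seen. Adcy2, an adenylyl cyclase, was at 91.8, 69.4, 91.3 and 63.2 RPM in WT and 146, 210, 136 and 150 RPM in A3 (log2 fold change 1.09). Mamld1, X-linked, was at 6.41, 8.91, 8.04 and 9.53 RPM in WT and 17.3, 18.3, 27.7 and 16.3 RPM in A3 (log2 fold change 1.33). In both genes every A3 library exceeded every WT library. Fam219a was at 14.8, 16.6, 7.78 and 9.25 RPM in WT and 36.8, 31, 15.2 and 14.3 RPM in A3 (log2 fold change 1.02), separated within each day.

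Genes of naive pluripotency, the ground state of mESCs that is lost on differentiation, were all on the lower side. All 15 tested had a log2 fold change under 0, with a median of -0.82 where the median of all autosomal genes was -0.001, 0 called by edgeR and 6 at an unadjusted p under 0.05, against 9.11% of all autosomal genes. Nanog was at 20, 20.1, 16.1 and 39.3 RPM in WT and 11.9, 13.6, 16.1 and 4.3 RPM in A3 (log2 fold change -0.99, edgeR adjusted p = 0.542), and Klf2 had -0.89 (adjusted p = 0.621). On day 5 both A3 libraries of Nanog were below both WT libraries, and on day 7 replicate 1 of either genotype was at 16.1. Spp1 was the gene of the list that DESeq2 called (log2 fold change -1.58, DESeq2 adjusted p = 0.0195). The summed level of the list was 168 to 510 RPM in WT and 109 to 271 RPM in A3, with WT replicate 2 at 510 on day 5 and 473 on day 7. Against WT replicate 1 alone the median was -0.28, and without A3 day 7 replicate 2 it was -0.64. Nanog itself lies in the part of chromosome 6 where WT replicate 2 had an altered allele share, 0.603 and 0.615 Cast against 0.467 to 0.486. Its part in the values was not tested.

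The 13 tested core and primed pluripotency genes were also all lower in A3, with a median of -0.47, 5 of them at an unadjusted p under 0.05 (9.11% over all autosomal genes) and 0 called by edgeR. Zic5, a zinc finger factor of the early epiblast, was at 19.5, 15.3, 9.2 and 11 RPM in WT and 8.4, 10.6, 6.55 and 4.69 RPM in A3 (log2 fold change -0.80, DESeq2 adjusted p = 0.000928), lower in A3 within each day. The median was -0.39 without A3 day 7 replicate 2 and -0.48 against WT replicate 1 alone. Genes of mesoderm, endoderm and trophoblast went the other way, 11 of 11 tested (of 15 listed) higher with a median of 0.60, none at an unadjusted p under 0.05. T (Brachyury), a mesoderm factor, was at 79.6, 6.89, 133 and 53.1 RPM in WT and 71.7, 245, 143 and 78.3 RPM in A3, with wide overlap.

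Neural genes as lists overlapped between genotypes. Of 20 neural precursor genes 16 were tested and 12 were higher in A3, with a median of 0.33 that became -0.11 without A3 day 7 replicate 2 and -0.15 against WT replicate 1 alone. Nes, an intermediate filament of neural progenitors, averaged 98.4 RPM in WT and 109 RPM in A3 (log2 fold change 0.12), and Vim, vimentin, 52.2 and 60.6 RPM (0.30). Pax6, a neural transcription factor, was at 2.46, 2.35, 1.02 and 1.83 RPM in WT and 0.638, 0.387, 0.711 and 0.899 RPM in A3. Every A3 library of Pax6 was below every WT library (log2 fold change -1.43, edgeR adjusted p = 0.485). Of 8 tested proneural and neuronal genes 6 were lower, with a median of -0.29. Tubb3, a neuronal tubulin, had a log2 fold change of -0.55.

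Hox genes, which pattern the body axis and are held silent by Polycomb in mESCs, stood apart in 1 library. Of 39 in the files 11 passed the expression filter, 10 of them higher in A3 with a median of 2.27, and without A3 day 7 replicate 2 that median was -0.23. The summed level was 240 RPM in that library and 3.02 to 28.6 RPM in the other 7. In the same library Cdh1, the epithelial cadherin of mESCs, was at 66.7 RPM against 304 to 459 in the others, and Cdh2, the cadherin of neural and mesodermal cells, at 1314 RPM against 73 to 631 in the others.

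**Figure D4:**
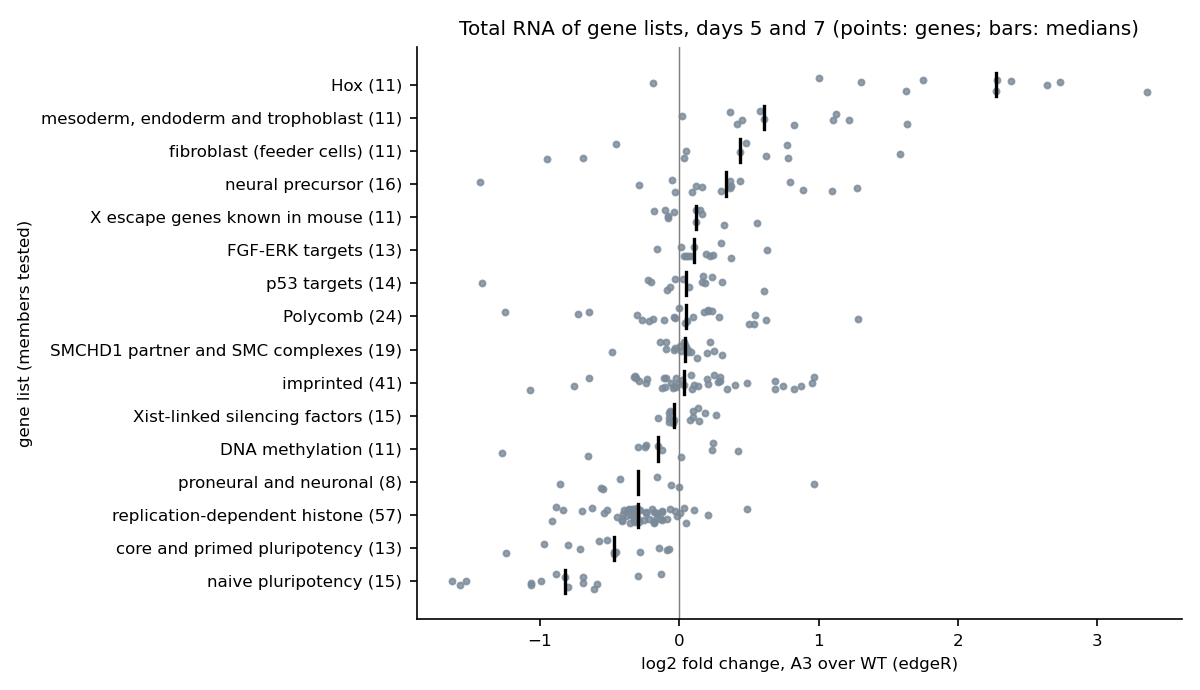
Log2 fold change of total RNA, A3 over WT, on the x axis for the tested genes of each list on the y axis (points, genes; bars, medians; number tested in parentheses). The naive pluripotency genes sit below 0 with a median of -0.82, and the Hox genes spread furthest, with a median of 2.27 that was -0.23 without A3 day 7 replicate 2.

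Fibroblast genes, which would mark leftover feeder cells, had 8 of 11 tested members higher in A3 (12 listed), with a median of 0.44 and of 0.02 without A3 day 7 replicate 2. Their summed level was 74.2 to 176 RPM in WT and 91.5 to 216 RPM in A3. Lum, a fibroblast proteoglycan, was at 0.0399 RPM or less in every library, while other members were expressed. Col1a1 was at 3.79 to 13.3 RPM in WT and 7.67 to 13.3 RPM in A3 (log2 fold change 0.78, edgeR adjusted p = 0.519). Col1a2 averaged 12.6 RPM in WT and 15.9 RPM in A3, and Col3a1 8.23 and 12.4 RPM. Thy1 went the other way, at 0.687 and 0.487 RPM. The part of the fibroblast genes in the other lists was not tested. Imprinted genes, some of which SmcHD1 is known to hold silent on 1 parental allele, were split 22 higher and 19 lower of 41 tested (46 listed), with a median of 0.03. Peg3, a paternally expressed zinc finger gene, was at 351, 248, 820 and 804 RPM in WT and 489, 660, 1139 and 1029.6 RPM in A3 (log2 fold change 0.75, DESeq2 adjusted p = 0.00431, edgeR adjusted p = 0.445), higher in A3 within each day. Sgce, another paternally expressed gene, had 0.49 (DESeq2 adjusted p = 0.0212). The clustered protocadherins, another known SmcHD1 target, were too low to compare, with 1 of 59 past the filter.

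The chromatin and pathway lists had medians between -0.15 and 0.12, apart from the histone genes. The SMCHD1 partner and SMC complex genes had 13 of 19 higher and a median of 0.04, which turned to 13 of 19 lower and -0.05 without A3 day 7 replicate 2. Lrif1, an SmcHD1 partner protein, averaged 132 RPM in WT and 147 RPM in A3 (log2 fold change 0.22), while Ncapd2, a condensin subunit, was lower in every A3 library (250, 258, 239 and 333 RPM in WT, 164, 177, 192 and 202 RPM in A3, log2 fold change -0.49, edgeR adjusted p = 0.485). Polycomb genes had 14 of 24 higher (median 0.05), which turned to 16 of 24 lower (median -0.06) without that library, and targets of FGF-ERK signalling had 12 of 13 higher (median 0.11), with 6 of 13 lower (median 0.05) without it and 5 of 13 lower against WT replicate 1 alone. Of the others, Xist-linked silencing factors had 7 of 15 higher (median -0.03), DNA methylation genes 4 of 11 (median -0.15), p53 targets 8 of 14 (median 0.05) and known X escape genes 6 of 11 (median 0.12, and -0.02 without that library). Replication-dependent histone genes had 51 of 57 lower in A3, with a median of -0.30 and 2 at an unadjusted p under 0.05. No member of these lists passed the edgeR test.

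One short stretch of chromosome 4, noticed after the values were seen, differed as a block. At chr4:41114426-41774176 (mm10, 659751 bases), from Nol6 to Ccl27a, all 20 tested genes were higher in A3, with log2 fold changes from 0.12 to 1.07 and a median of 0.57. Of these, 13 had an unadjusted p under 0.05, against 9.11% of all autosomal genes. All A3 libraries lay above all WT libraries in 8 of the 20, against 0.995% of all autosomal genes. DESeq2 called 8, Fam219a among them, against 0.557% of the genes it fitted. The borders were drawn after the values were seen, so these counts and the 20 higher genes are a description. Ubap1, a subunit of the ESCRT-I sorting complex, was at 49.6, 51.7, 56.2 and 54 RPM in WT and 82.3, 82.3, 77.9 and 89.8 RPM in A3 (log2 fold change 0.72). Kif24, a ciliary kinesin, was at 111, 112, 126 and 119 RPM in WT and 173, 186, 162 and 181 RPM in A3 (0.65). Both were steady within a genotype and did not overlap between genotypes. The 8 flanking genes, the nearest 4 on either side with an expression level above the median, had log2 fold changes from -0.16 to 0.35. The highest was B4galt1 (edgeR unadjusted p = 0.0355, adjusted p = 0.532). The first flanking gene past Ccl27a, Vcp, starts only at chr4:42979963, so where the block ends on that side was not located.

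The allele share in this stretch differed too. Nol6, Ube2r2 and Ubap2 together had a Cast share of 0.485 to 0.511 in the 4 WT libraries and 0.646 to 0.653 in the 4 A3 libraries of days 5 and 7. The share was 0.494 to 0.507 in WT and 0.653 to 0.656 in A3 on days 2 and 3, and 0.494 to 0.514 and 0.649 to 0.664 on days 15 to 52. In A3 it was 0.651 to 0.666 before induction. The A3 share was thus above the WT range at every time measured, and uninduced WT libraries were not used here. DNA copy number was not measured in these libraries, and a difference in copy number of the clone and a difference in transcription cannot be told apart here.

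**Figure D5:**
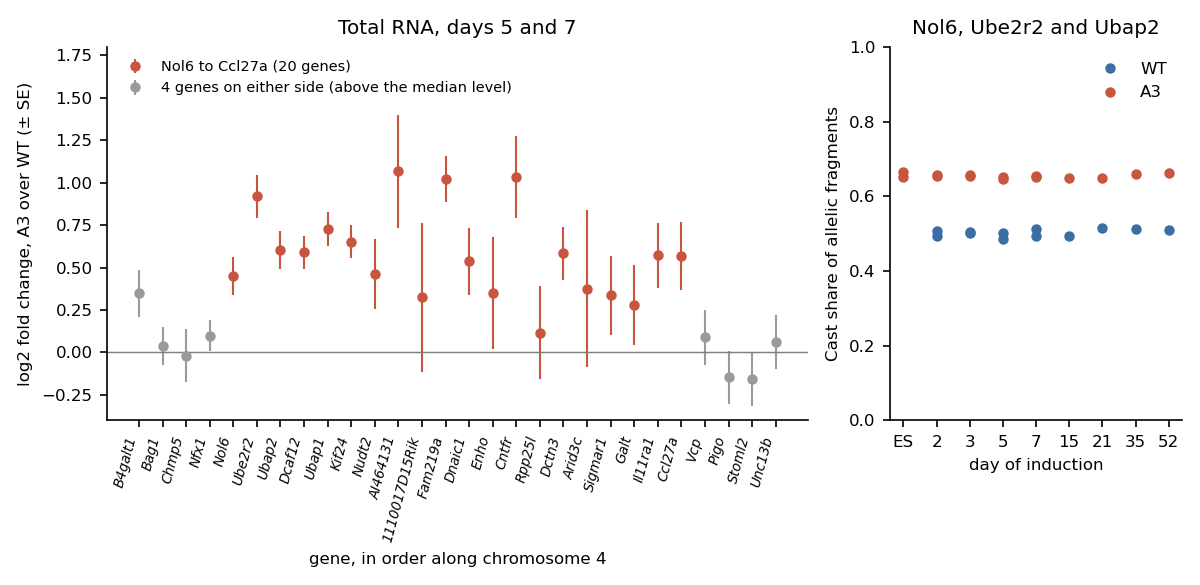
Left, log2 fold change of total RNA, A3 over WT, for genes across the chromosome 4 stretch and its flanks in gene order; right, Cast share of the allelic fragments of Nol6, Ube2r2 and Ubap2 by day of induction (blue, WT; red, A3; points, libraries). The 20 genes of the stretch lie between 0.12 and 1.07, and the Cast share stays between 0.646 and 0.666 in A3 and between 0.485 and 0.514 in WT.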

How the data were processed

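Chromatin-associated RNA was sequenced from rRNA-depleted stranded libraries (TruSeq). Per the labels and the study's methods, the authors removed rRNA reads with Bowtie2 (2.3.2), aligned with STAR (2.4.2a) to an mm10 genome masked at strain differences, split fragments by parental allele and counted them with featureCounts (1.5.2 in the file headers) by strand over whole transcripts, introns included. The deposited values are raw counts per gene in 3 columns per library (all fragments, Cast and Dom). The series has 74 deposited files, and the counts of 44 libraries, all 26 of the iXist-ChrX-Dom line concerned and 18 of iXist-ChrX-Cast, were used, with 22556 genes each. From the deposited allelic ratio tables only the gene names were taken, and their 72 columns of values for single libraries were not used. The authors kept genes there on allelic depth and on a balanced ratio before induction, so strongly skewed or low genes were not examined. Genes past position 103396118 of the X chromosome are absent from the Dom table.

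Allelic ratios were computed as Dom counts over Dom plus Cast counts (Cast over both for iXist-ChrX-Cast) and tested with limma (3.58.1, trended variance, day as a factor). Total counts were tested with edgeR (4.0.16) quasi-likelihood tests after TMM scaling and its default expression filter, with DESeq2 (1.42.0) as an alternative, in R 4.3.3. Adjusted p-values are Benjamini-Hochberg over all genes tested, with a threshold of 0.05, and RPM is per 1000000 of all counted fragments. For DESeq2 they cover the 14645 genes that received an adjusted p. Single-library intervals are 95% Wilson intervals, a count of 0 is given the limit of 3 counts, and both cover counting error only. Median ratios and Xist were tested by exact two-sided permutation within days. The tests were tried on simulated counts with known changes. Every X-linked gene past the threshold was named, the 12 largest by library, with the escape genes of the table and Smchd1, Lrif1, Xist, Nanog, Klf2, Nes, Vim, Sox1 and Pax6. The members and gene lists were chosen with earlier results of these data known. Alternatives tried were other tests and scalings, filters, replicate blocks, a fit of all 26 libraries, single days and leaving out each library. Fits for WT replicate 1 alone, for single days and for days joined per time course were added after seeing the data.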

Additional observations from a re-analysis of the deposited data

Results flagged for a closer look

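In 2 genes the A3 minus WT difference in allelic ratio was larger on days 5 and 7 than on days 2 and 3 by a test of that interaction over all 246 genes (limma, adjusted p under 0.05). For Taz the increase was 0.130 (SE 0.0252, adjusted p = 0.0418): its difference went from below 0 on days 2 and 3, where the means were 0.268 in WT and 0.228 in A3, to 0.0905. For Taf1 the increase was 0.127 (SE 0.0267, adjusted p = 0.043), from means of 0.268 in WT and 0.245 in A3 to a difference of 0.104. On each of days 2 and 3 both A3 libraries of Taf1 lay below both WT libraries, so the increase includes a difference in the other direction. All 4 A3 libraries of Taf1 lay above all 4 WT libraries on days 5 and 7. On the log2 scale of Xi over Xa counts 10 genes passed the same test, 9 of them among the 18 and the other Ogt. Since the 18 were chosen on libraries of days 5 and 7 that enter this test, that choice in part set the overlap.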

How the results depend on the processing

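The 18 genes with a higher allelic ratio in A3 became 9 with same-numbered replicates as a block, 7 with all 26 libraries in 1 fit, 0 with day 5 alone (27 at an unadjusted p under 0.05), 0 with day 7 alone (45), 1 with WT replicate 1 alone, 0 with days 5 and 7 joined per time course, and 0 to 14 when 1 library was left out. It was 20 without a variance trend, 23 on the log2 scale, 25 with edgeR and 27 with at least 30 allelic fragments. The fits with lower counts have fewer samples or another estimate of the spread, and the cause of each change was not tested. The genes whose difference grew after days 2 and 3 went from 2 to 10 on the log2 scale. For total RNA, edgeR's 0 genes became 112 with DESeq2, 15 with all 26 libraries and 14 with crossed replicates as a block, and stayed 0 in each fit that left out a library or joined the days per time course (562 genes at an unadjusted p under 0.05). Smchd1's log2 fold change of 0.01 turned to -0.0583 with library totals and -0.0214 with WT replicate 1 alone, and ran from -0.0458 to 0.063 when 1 library was left out, below 0 without WT day 5 replicate 2 (-0.0043) or A3 day 7 replicate 2. With WT replicate 1 alone Lrif1 turned to -0.00201, Nes to -0.19 and Vim to -0.22, and Nes ran from -0.0556 (without WT day 5 replicate 2) to 0.344 when 1 library was left out.

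Same replicate numbers gave no sign of pairing WT with A3 libraries. Deviations of same-numbered WT and A3 libraries correlated at 0.0628 on day 5 and -0.266 on day 7 for the allelic ratio, and at -0.637 and -0.678 for log2 CPM. The same-number replicate block gave 9 genes for the allelic ratio and 0 for total RNA. With the numbers crossed, where 2 libraries a group make the correlations the same with the opposite sign (0.637 and 0.678 for log2 CPM, -0.0628 and 0.266 for the ratio), the block gave 12 and 14. The naming of the deposited files also groups WT replicate 1 with A3 replicate 2, and no label states a pairing.

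Depth limits genes with few allelic fragments, such as Arhgap4 and Ppp1r3f, where 1 library's ratio moves with single fragments.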
